A study of Mus musculus with 24 samples.

Results

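The genes described here are 10 fatty acid elongases and desaturases, chosen by symbol from the 23017 genes of the deposited table: the stearoyl-CoA desaturases Scd1 and Scd2, the elongases Elovl1, Elovl3, Elovl4, Elovl5 and Elovl6, and the front-end desaturase family Fads1, Fads2 and Fads3. Each of the 10 was found in the table, and all 10 were among the 17263 genes tested after a filter on low mean values. The samples are 24 libraries of polyA RNA from the brown fat of C57BL/6J mice, 6 in each of 4 groups, and the series describes its mice as obese and insulin resistant. The groups are named as in the labels. Vehicle received vehicle and was not pair-fed. LAGIPRA received a long-acting agonist of the receptor for the gut hormone GIP. TZP received tirzepatide, an agonist of the receptors for GIP and GLP-1. PairFedVehicle received vehicle with pair feeding, in which food is limited to what another group eats. The sources used here give neither the group that set the food amount nor the doses, the duration, the diet, the age or the sex. They do not say whether each library came from a separate animal, so the p-values measure the spread between these samples, which may be technical.

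An elongase of the ELOVL family joins malonyl-CoA to a fatty acyl-CoA at the endoplasmic reticulum, the first and rate-limiting step of a cycle that a ketoacyl-CoA reductase, a dehydratase and an enoyl-CoA reductase complete. Stearoyl-CoA desaturases put a double bond into saturated chains and so make palmitoleate and oleate, the main monounsaturated fatty acids of stored triglyceride. Fads1 and Fads2 desaturate polyunsaturated fatty acids near the carboxyl end, in alternation with Elovl5. Fatty acids made in the tissue enter through ATP citrate lyase, acetyl-CoA carboxylase and fatty acid synthase, which ends at palmitate, the substrate of Elovl6. Transcription of several of these genes responds to insulin and carbohydrate through SREBP-1c, ChREBP and the liver X receptors. In brown fat, Elovl3 is known as a gene induced by cold.

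Across the groups the 10 genes fell into 3 patterns. Scd1, Scd2, Fads3 and Elovl6 were lower in PairFedVehicle than in Vehicle and higher in LAGIPRA than in PairFedVehicle. In Scd1 and Fads3 the latter call was lost in most fits that left out 1 library. In TZP, Scd1, Scd2 and Fads3 were lower than in Vehicle, while Elovl6 differed by -0.15 and did not pass. With TZP 1 and 2 alone, the calls of Scd1, Scd2 and Fads3 were lost. Elovl6 then exceeded Vehicle by 0.71 (adjusted p = 0.0407 by limma). With all libraries, Elovl1, Elovl3, Elovl4, Elovl5, Fads1 and Fads2 passed the test in no comparison. Libraries of the same group nevertheless differed in several of the 10 genes in a shared way, Elovl1 with Fads1 and against Elovl4 and Elovl6.

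Upstream sequence is shown for Elovl6 and Fads3, the 2 genes that passed in at least 1 comparison and have an entry in the RefSeq promoter table (6 of the 10 genes have one, and Scd1, Scd2, Elovl3 and Fads1 do not). Each window holds the 200 bases from 250 to 51 before the annotated start, on build GRCm38.p6, on the gene's own strand, 5′ to 3′. Capitals mark any match on either strand to a CCAAT box, spelled CCAAT, or to a GC box, spelled GGGCGG. They also mark an E-box, spelled CACGTG, and a sterol element, spelled CACNCCAC; no match overlaps another in these 2 windows. The Elovl6 window lies at chr3:129532136-129532335 on the plus strand and the Fads3 window at chr19:10041298-10041497 on the plus strand.
Elovl6: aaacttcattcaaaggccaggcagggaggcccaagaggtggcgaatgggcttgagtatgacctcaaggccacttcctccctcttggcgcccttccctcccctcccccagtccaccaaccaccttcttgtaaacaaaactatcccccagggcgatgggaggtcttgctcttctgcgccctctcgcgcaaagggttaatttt
Fads3: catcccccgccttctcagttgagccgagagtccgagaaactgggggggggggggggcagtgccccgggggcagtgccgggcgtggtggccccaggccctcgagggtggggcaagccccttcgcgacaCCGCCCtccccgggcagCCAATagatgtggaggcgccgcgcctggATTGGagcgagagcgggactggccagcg

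In the Fads3 window CCAAT occurred at 106 and 78 bases before the start and a GC box at 123 bases. The Elovl6 window held none of the 4 motifs, which says only that these letters are not in these 200 bases. Of 32851 promoters of the mouse table, 28.4% held CCAAT in the same window, 24.6% the GC box, 4.3% the E-box and 4.2% the sterol element. These matches are a description of the sequence. The other genes with an entry were Elovl1, Elovl4, Elovl5 and Fads2; the E-box occurred only in the window of Elovl5, at 161 bases before the start, and the sterol element in none of those searched.

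Values are on the log2 scale inferred for the deposited table, so a difference of 1 is a doubling for a well-expressed gene. Read totals are unknown. The level of 1 read, which is larger in a shallower library, ran from 0.89 to 1.35 in Vehicle, 1.12 to 1.68 in LAGIPRA, 0.96 to 1.53 in TZP and 1.02 to 1.26 in PairFedVehicle. The slope of expression on log2 transcript length was 0.018 in TZP 1 and 0.020 in TZP 2 but -0.064, -0.088, -0.117 and -0.165 in TZP 3 to 6, against -0.0056 to 0.058 in the libraries of the other 3 groups. For the 10 genes, the TZP comparisons were also fitted with TZP 1 and 2 alone, and each call that this changed is given beside the result. The TZP results of related genes and cell type markers were not refitted in this way, and may rest on TZP 3 to 6. The 10 brown adipocyte markers averaged 11.09 to 11.94 in every library, while the 16 skeletal muscle markers, which stand for muscle carried with the depot, averaged only 0.80 in Vehicle 1, 0.91 in TZP 3 and 0.66 in PairFedVehicle 5. In bulk tissue, fewer cells of a type and less RNA per cell cannot be told apart.

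Scd1, which makes oleate and palmitoleate in adipose tissue, fell in TZP and in PairFedVehicle. Its values ran from 14.72 through a median of 15.04 to 15.46 in Vehicle, from 13.91 through 14.72 to 14.85 in LAGIPRA and from 13.46 through 13.86 to 14.08 in PairFedVehicle. In TZP 1 to 6 they were 14.60, 14.60, 13.50, 13.35, 13.42 and 13.16. Every library of TZP and of PairFedVehicle lay below every Vehicle library, and within TZP the first 2 libraries lay at the level of LAGIPRA and the other 4 within or below the range of PairFedVehicle. The mean was 15.08 ± 0.31 (SD, n = 6) in Vehicle, 14.54 ± 0.38 in LAGIPRA, 13.77 ± 0.65 in TZP and 13.77 ± 0.26 in PairFedVehicle. TZP minus Vehicle was -1.31 (SE 0.23, 2.48-fold lower, adjusted p = 0.00105 by limma, two-sided), and PairFedVehicle minus Vehicle was also -1.31 (adjusted p = 0.000951). The means of TZP and PairFedVehicle differed by 0.00, with a 95% interval from -0.48 to 0.48 (adjusted p = 0.999). With TZP 1 and 2 alone, TZP minus Vehicle was -0.48 (adjusted p = 0.206), with 2 libraries in place of 6 in the group. In the same setting TZP exceeded PairFedVehicle by 0.83 (adjusted p = 0.0444) and differed from LAGIPRA by 0.06 (adjusted p = 1), where the difference with all 6 was -0.77 (adjusted p = 0.0927). LAGIPRA minus Vehicle was -0.54 (interval -1.02 to -0.06, adjusted p = 0.113) and did not pass, while LAGIPRA exceeded PairFedVehicle by 0.77 (1.71-fold, adjusted p = 0.0325) with overlapping groups. This Scd1 call was lost in 7 of 12 fits that left out 1 library, when the level of 1 read was a covariate (adjusted p = 0.115) and when Vehicle 1, TZP 3 and PairFedVehicle 5 were left out together (0.092). Scd1 lies near the top of the table, where quantile normalization gives libraries equal values, and 6 libraries share an exact Scd1 value with another; its differences there are steps between ranks.

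Scd2, the closely related desaturase of many tissues outside liver, showed the largest difference of the 10 genes. Values ran from 8.93 through 9.27 to 9.41 in Vehicle, from 8.38 through 9.02 to 9.19 in LAGIPRA and only from 6.95 through 7.01 to 7.18 in PairFedVehicle. TZP 1 to 6 were at 9.18, 8.33, 7.55, 7.22, 7.40 and 7.41, all above the highest PairFedVehicle library and, except for TZP 1, below the lowest Vehicle library. The mean was 9.21 ± 0.18 in Vehicle, 8.87 ± 0.35 in LAGIPRA, 7.85 ± 0.76 in TZP and 7.04 ± 0.10 in PairFedVehicle (SD, n = 6 each). PairFedVehicle was 4.49-fold below Vehicle (log2 difference -2.17, interval -2.65 to -1.68, adjusted p = 4.27e-06). TZP was 2.56-fold below Vehicle (-1.36, SE 0.23, adjusted p = 0.00094) and 1.75-fold above PairFedVehicle (0.81, interval 0.32 to 1.29, adjusted p = 0.0207). The latter call was lost when only the 2 groups were compared (adjusted p = 0.0884 by limma). It was also lost when the level of 1 read was a covariate (adjusted p = 0.0511 by limma). LAGIPRA lay 3.56-fold above PairFedVehicle (1.83, adjusted p = 1.92e-05) and differed from Vehicle by -0.33 (interval -0.82 to 0.15, adjusted p = 0.341). TZP minus LAGIPRA was -1.02 (adjusted p = 0.0516), just outside the threshold. With TZP 1 and 2 alone, the difference of Scd2 from Vehicle was -0.45 (adjusted p = 0.184) that from PairFedVehicle 1.71 (adjusted p = 0.00012) and that from LAGIPRA -0.12 (adjusted p = 1). The transcripts of Scd1, Scd2, Scd3 and Scd4 are similar, and the sources used here do not say how reads that match several of them were counted. The microRNA gene Mir5114 lies inside Scd2 on the same strand (GENCODE M21), and the table lists it separately; reads of the 2 cannot be told apart.

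**Figure D1:**
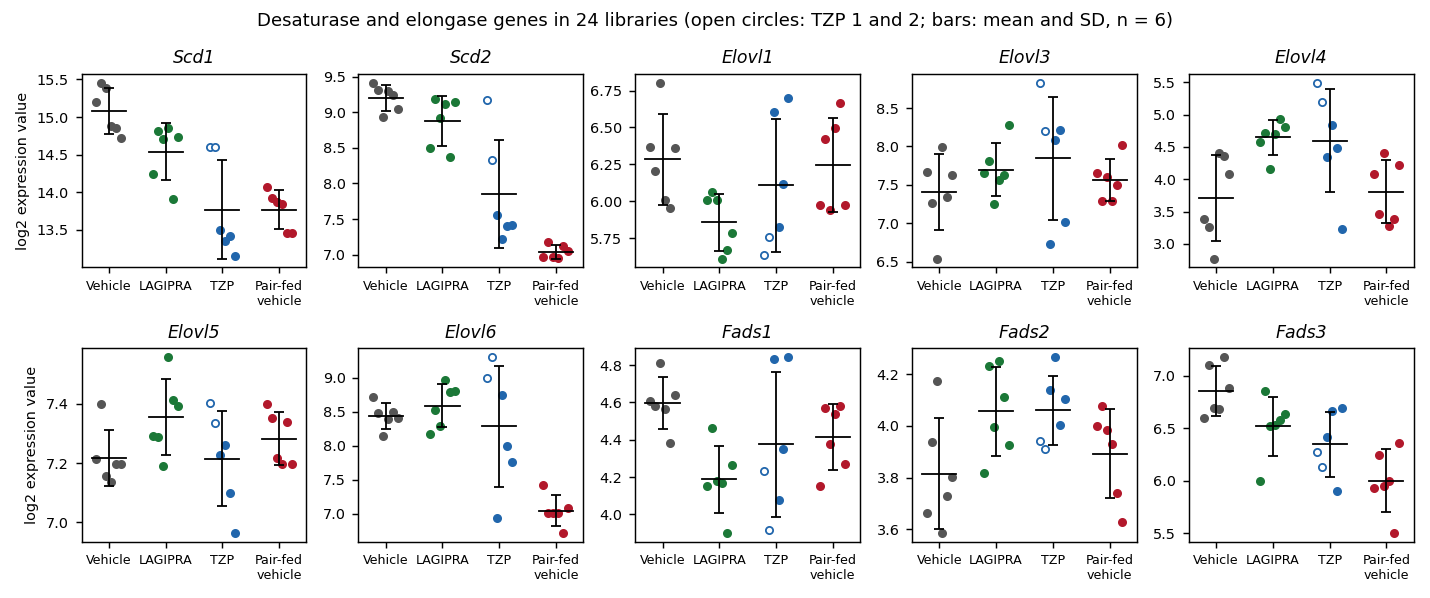
Log2 expression value (vertical axis) of each of the 10 genes in the 24 libraries, by group; points are libraries, open circles TZP 1 and 2, and bars the mean and SD of 6. PairFedVehicle lies below Vehicle with no overlap for Scd1, Scd2, Elovl6 and Fads3, and TZP is the most spread group for Elovl6, from 6.94 to 9.30.

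Elovl6, the elongase that carries palmitate to stearate, was lower in PairFedVehicle than in each of the other groups. Values ran from 8.14 through 8.44 to 8.71 in Vehicle, from 8.17 through 8.65 to 8.96 in LAGIPRA and from 6.71 through 7.01 to 7.42 in PairFedVehicle. In TZP 1 to 6 they were 8.99, 9.30, 6.94, 8.74, 7.99 and 7.75, so 5 of 6 TZP libraries lay above every PairFedVehicle library and TZP 3 lay among them. The mean was 8.44 ± 0.19 in Vehicle, 8.59 ± 0.31 in LAGIPRA, 8.28 ± 0.89 in TZP and 7.04 ± 0.23 in PairFedVehicle (SD, n = 6 each). PairFedVehicle minus Vehicle was -1.39 (SE 0.27, 2.63-fold lower, adjusted p = 0.00199). TZP exceeded PairFedVehicle by 1.24 (2.37-fold, adjusted p = 0.00325) and LAGIPRA exceeded it by 1.55 (2.92-fold, adjusted p = 0.000513). Against Vehicle, the difference was -0.15 in TZP (interval -0.71 to 0.40, adjusted p = 0.727) and 0.15 in LAGIPRA (interval -0.40 to 0.71, adjusted p = 0.733). These intervals do not show that the groups are alike. With TZP 1 and 2 alone, TZP exceeded Vehicle by 0.71 (adjusted p = 0.0407) and PairFedVehicle by 2.102 (adjusted p = 8.11e-06), so the sign against Vehicle turned. An exon of the predicted antisense gene Gm35986 overlaps Elovl6 on the other strand, and whether reads were counted by strand is not given in the sources used here.

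Fads3, a family member that acts on sphingoid bases, had its group means in the same order as Scd2. Its values ran from 6.60 through 6.78 to 7.18 in Vehicle, from 5.99 through 6.55 to 6.85 in LAGIPRA, from 5.90 through 6.34 to 6.69 in TZP and from 5.50 through 5.98 to 6.36 in PairFedVehicle. PairFedVehicle lay wholly below Vehicle, and every other pair of groups overlapped. PairFedVehicle was 1.81-fold below Vehicle (-0.86, interval -1.18 to -0.53, adjusted p = 0.00137) and TZP 1.42-fold below it (-0.51, SE 0.16, adjusted p = 0.0243; 0.0591 with the level of 1 read as a covariate). LAGIPRA exceeded PairFedVehicle by 0.52 (1.43-fold, adjusted p = 0.0338). That call was lost in 8 of 12 fits that left out 1 library, when the level of 1 read was a covariate (adjusted p = 0.0778) and when the same 3 libraries were left out (0.106). TZP minus PairFedVehicle was 0.35 (adjusted p = 0.141) and LAGIPRA minus Vehicle -0.34 (adjusted p = 0.146), neither of which passed. With TZP 1 and 2 alone, TZP minus Vehicle was -0.66 (adjusted p = 0.0697). In Fads3, unlike the other 3 genes, TZP 1 and 2 did not lie above TZP 3 to 6: the 6 values were 6.27, 6.13, 6.42, 6.66, 5.90 and 6.69.

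Elovl4, which makes very long chains, lay higher in both drug groups without passing. Values ran from 2.77 through 3.73 to 4.40 in Vehicle, from 4.16 through 4.71 to 4.93 in LAGIPRA and from 3.28 through 3.78 to 4.41 in PairFedVehicle. TZP 1 to 6 were at 5.49, 5.19, 4.35, 4.85, 4.48 and 3.22, where TZP 6 lay among the lower libraries of Vehicle. LAGIPRA minus Vehicle was 0.94 (SE 0.32, interval 0.27 to 1.61, adjusted p = 0.0547) and TZP minus Vehicle 0.89 (interval 0.22 to 1.56, adjusted p = 0.0512). Without TZP 6 the latter was 1.16 (adjusted p = 0.00908), and with TZP 1 and 2 alone 1.63 (adjusted p = 0.0221). Over the 12 fits that left out 1 library, TZP minus Vehicle ran from 0.70 to 1.16. The largest adjusted p was 0.137 by limma, and the call was gained in 3 of the 12. Against PairFedVehicle, TZP differed by 0.79 (adjusted p = 0.0982), and with TZP 1 and 2 alone by 1.53 (adjusted p = 0.0214). PairFedVehicle differed from Vehicle by 0.10 (adjusted p = 0.898).

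Elovl3, the elongase of saturated and monounsaturated chains in brown fat and skin, was at 7.40 ± 0.50 in Vehicle, 7.70 ± 0.34 in LAGIPRA, 7.85 ± 0.80 in TZP and 7.56 ± 0.27 in PairFedVehicle (SD, n = 6 each). The 6 TZP libraries were at 8.83, 8.20, 6.73, 8.09, 8.21 and 7.01 and spanned more than the Vehicle range of 6.54 to 7.99. TZP minus Vehicle was 0.44 (SE 0.28, interval -0.14 to 1.03, adjusted p = 0.273), and with TZP 1 and 2 alone 1.11 (adjusted p = 0.0376). Its other comparisons had an adjusted p of 0.497 or more. Elovl1, the elongase of saturated very long chains, ran from 5.96 to 6.80 in Vehicle, 5.61 to 6.06 in LAGIPRA, 5.64 to 6.70 in TZP and 5.94 to 6.67 in PairFedVehicle. LAGIPRA was lowest, at -0.43 from Vehicle (SE 0.18, adjusted p = 0.112) and -0.39 from PairFedVehicle (adjusted p = 0.176). Elovl1 in TZP 1 and 2 alone was -0.59 from Vehicle (adjusted p = 0.1) and -0.55 from PairFedVehicle (adjusted p = 0.133). Exons of Cdc20 overlap Elovl1 and exons of Pitx3 overlap Elovl3, both on the other strand.

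The enzymes of polyunsaturated fatty acid synthesis had the smallest standard errors of the 10 genes. Elovl5, which extends polyunsaturated chains, had group means from 7.21 ± 0.16 in TZP to 7.36 ± 0.13 in LAGIPRA (SD, n = 6 each). With an SE of 0.074, its differences were the most precise of these, and none had an adjusted p under 0.202. Fads2, the delta-6 desaturase, was at 4.06 ± 0.17 in LAGIPRA and 4.06 ± 0.13 in TZP against 3.82 ± 0.21 in Vehicle and 3.89 ± 0.17 in PairFedVehicle. TZP minus Vehicle was 0.25 for Fads2 (SE 0.12, adjusted p = 0.133) and LAGIPRA minus Vehicle 0.24 (adjusted p = 0.16). Fads1, the delta-5 desaturase, ran from 4.38 through 4.59 to 4.81 in Vehicle and from 3.90 through 4.17 to 4.46 in LAGIPRA, with 1 LAGIPRA library above the lowest Vehicle library. The difference was -0.41 (SE 0.14, interval -0.70 to -0.12, adjusted p = 0.0557), and no other Fads1 comparison had an adjusted p under 0.274. In TZP 1 and 2 alone, the difference from Vehicle was -0.52 for Fads1 (adjusted p = 0.0526), 0.11 for Fads2 (adjusted p = 0.721) and 0.15 for Elovl5 (adjusted p = 0.299). Fads1 and Fads2 thus had differences of opposite sign in LAGIPRA, neither of which passed.

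Counted over the 10 genes, 4 fell in PairFedVehicle against Vehicle and 0 rose, where 3.66% of all tested genes were called lower and 4.96% higher. In TZP against Vehicle, 3 fell and 0 rose, beside 10.3% lower and 11.7% higher among all tested genes. In LAGIPRA against PairFedVehicle, 4 rose and 0 fell, beside 7.3% higher and 4.55% lower. In TZP against PairFedVehicle, 2 rose and 0 fell, beside 8.39% higher and 8.02% lower. In LAGIPRA against Vehicle, limma called 0 of 10, beside 8.7% higher and 5.03% lower. In TZP against LAGIPRA it also called 0, where only 0.0521% of tested genes were called higher and 0.348% lower. The median difference of the 10 genes was -0.11 in PairFedVehicle against Vehicle (0.02 over all tested genes), -0.16 in TZP against Vehicle (0.04) and 0.34 in LAGIPRA against PairFedVehicle (-0.01). It was 0.23 in TZP against PairFedVehicle (0.00), -0.10 in LAGIPRA against Vehicle (0.03) and -0.09 in TZP against LAGIPRA (0.01). Comparisons with a group in common share its libraries and are not independent. In the order of group means, only TZP above PairFedVehicle for Scd2 and for Elovl6 separated neighbours beyond the threshold. The other neighbours did not pass it, which does not show that they are alike. Some of their intervals excluded 0. For TZP minus LAGIPRA these ran from -1.51 to -0.54 in Scd2 and from -1.25 to -0.29 in Scd1. For TZP minus PairFedVehicle they ran from 0.12 to 1.46 in Elovl4 and from 0.02 to 0.67 in Fads3. For LAGIPRA minus Vehicle they ran from -1.02 to -0.06 in Scd1 and from -0.66 to -0.01 in Fads3.

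**Figure D2:**
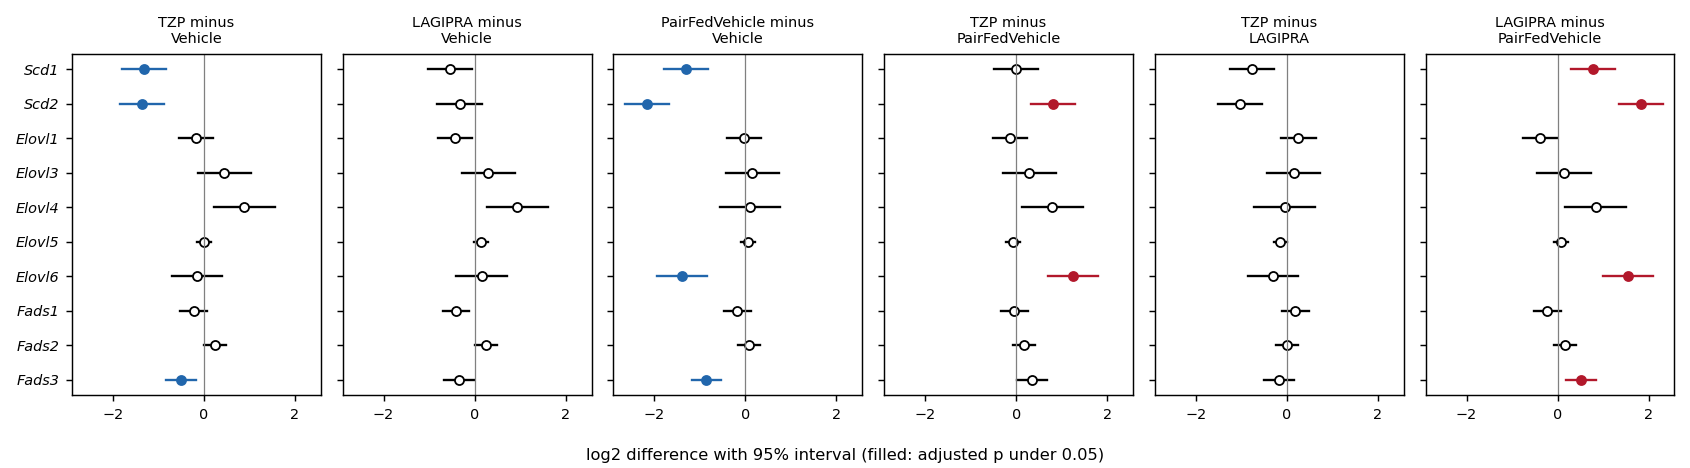
Log2 difference (horizontal axis, with its 95% interval) of each of the 10 genes in the 6 comparisons; filled points have an adjusted p under 0.05. Scd1, Scd2, Elovl6 and Fads3 are filled in PairFedVehicle minus Vehicle and, on the other side of 0, in LAGIPRA minus PairFedVehicle.

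Most of the genes that supply palmitate and malonyl-CoA were lowest in PairFedVehicle. Of 9 tested, 7 fell in PairFedVehicle against Vehicle, with a list median of -1.26, beside 3.66% lower among all tested genes. Acly, which makes cytosolic acetyl-CoA from citrate, was 5.63-fold lower (-2.49, SE 0.28, adjusted p = 5.65e-06), and Fasn, fatty acid synthase, 7.09-fold lower (-2.83, SE 0.37, adjusted p = 2.9e-05). Acaca, which makes malonyl-CoA, fell 5.09-fold (adjusted p = 2.84e-05). In LAGIPRA against PairFedVehicle, 7 of 9 rose (median 1.56), with Fasn 9.72-fold higher (adjusted p = 4.5e-06). In TZP against PairFedVehicle, 7 of 9 rose as well (median 1.39), with Acly at 2.72 (adjusted p = 1.69e-06) and Fasn at 2.39 (adjusted p = 0.000183). Among all tested genes, 7.3% were called higher in LAGIPRA and 8.39% in TZP against PairFedVehicle, and 8.7% and 11.7% against Vehicle. Against Vehicle, 2 of 9 rose in LAGIPRA and 2 in TZP: Thrsp, a lipogenic protein of adipose tissue and liver, by 0.86 and 0.71, and Mcat, a mitochondrial malonyltransferase, by 0.39 and 0.41. Scd1 and Scd2 fell in TZP against Vehicle with all 6 TZP libraries, where 0 of these 9 were called lower. TZP was divided in some of these 9 as well. Fasn was at 10.79, 11.47 and 11.27 in TZP 3, 5 and 6, below the lowest Vehicle library (12.29). Acacb was at 8.41, 8.82, 8.33 and 7.75 in TZP 3 to 6, below the lowest Vehicle library (9.08). In TZP 1 and 2 both genes lay above it. Every TZP library lay above the lowest Vehicle library in Thrsp and Mcat. The contrast was not tested in TZP 1 and 2 alone.

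Among 6 partners of the elongation cycle, Tecr, the enoyl-CoA reductase that ends the cycle, was lower in PairFedVehicle than in Vehicle by -0.46 (SE 0.082, adjusted p = 0.000901), with no overlap. Its means were 7.73 ± 0.16 in Vehicle, 7.93 ± 0.15 in LAGIPRA, 7.94 ± 0.13 in TZP and 7.26 ± 0.12 in PairFedVehicle (SD, n = 6 each). Tecr was higher than in PairFedVehicle by 0.68 in TZP and 0.67 in LAGIPRA. Hsd17b12, the ketoacyl-CoA reductase, rose over PairFedVehicle in TZP (0.43, adjusted p = 0.0039) and in LAGIPRA (0.35, adjusted p = 0.0189). Hacd1, a dehydratase, moved the other way, at 0.44 in PairFedVehicle against Vehicle (adjusted p = 0.0131). Of the 4 genes that pass electrons to the desaturases, Cyb5b and Cyb5r3, a cytochrome b5 and its reductase, were lower than in Vehicle in TZP (-0.38 and -0.22) and in PairFedVehicle (-0.53 and -0.25), and Cyb5r3 also in LAGIPRA (-0.17, adjusted p = 0.0478). In TZP 1 and 2, Cyb5b (8.87 and 8.59) lay within its Vehicle range of 8.51 to 8.87. Cyb5r3 (7.61 and 7.69) lay below its Vehicle range of 7.94 to 8.06 there. Of the other elongases and desaturases, 4 of 7 passed the filter on low values, and Elovl2, Elovl7 and Fads6 did not. Scd3 fell by 1.04 in TZP and by 1.05 in PairFedVehicle against Vehicle, and Scd4 fell by 0.77 and 1.33; both share sequence with Scd1 and Scd2. Degs1, the dihydroceramide desaturase, fell in LAGIPRA by 0.22 (adjusted p = 0.0439).

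Among 12 regulators, Insig1, which retains the SREBP complex in the endoplasmic reticulum and is itself an SREBP target, was lower in PairFedVehicle than in Vehicle by -0.81 (SE 0.12, adjusted p = 0.00018). It was higher than in PairFedVehicle by 0.61 in TZP and 0.96 in LAGIPRA. Srebf1, which encodes SREBP-1, did not follow this order: it was higher than in Vehicle in PairFedVehicle (0.30) and in LAGIPRA (0.42, adjusted p = 0.00787), and lower in TZP than in PairFedVehicle (-0.26). Mlxipl, which encodes ChREBP, was higher than in Vehicle in LAGIPRA (0.77, adjusted p = 0.00526) and in TZP (0.60), and higher than in PairFedVehicle in LAGIPRA (0.63, adjusted p = 0.00724). Counts over the 12 were 3 higher and 0 lower in TZP against Vehicle, 4 and 0 in LAGIPRA against Vehicle and 3 and 2 in PairFedVehicle against Vehicle. Of 12 tested genes that activate or store the products, 4 rose and 1 fell in TZP against Vehicle, 3 rose and 0 fell in LAGIPRA, and 2 rose and 1 fell in PairFedVehicle. Beside both sets of counts, 11.7% of all tested genes were called higher and 10.3% lower in TZP against Vehicle. The shares were 8.7% and 5.03% in LAGIPRA and 4.96% and 3.66% in PairFedVehicle, each against Vehicle. Acsl5, an acyl-CoA synthetase, fell by 0.56 in PairFedVehicle and was 0.81 higher in LAGIPRA than in PairFedVehicle. Acsl4, which prefers arachidonate, fell by 0.79 in TZP. Its values in TZP 1 to 6 were 4.61, 4.23, 4.15, 3.32, 3.15 and 3.21, against 4.32 to 4.71 in Vehicle.

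**Figure D3:**
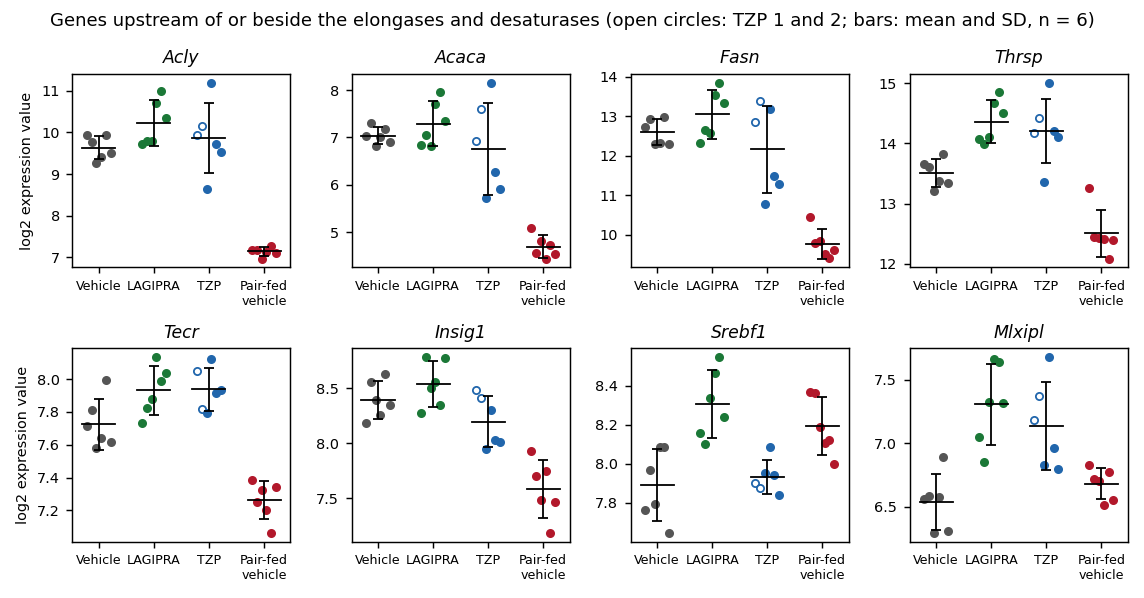
Log2 expression value (vertical axis) of 8 genes that supply, assist or regulate the elongases and desaturases, by group; points are libraries, open circles TZP 1 and 2, and bars the mean and SD of 6. Acly, Acaca, Fasn, Tecr and Insig1 are lowest in PairFedVehicle, and Srebf1 is not.

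Within groups, several of the 10 genes rose and fell together from library to library. After each group's mean was subtracted, 10 of the 45 pairs passed an adjusted p of 0.05 by Pearson's r over 24 libraries (permutation within groups, two-sided, adjusted over 45 pairs), 4 of them positive and 6 negative, and 9 passed by Spearman's rho as well. Elovl1 and Elovl4 varied in opposite directions, with r = -0.867 and rho = -0.861 (permutation p = 1e-05, the smallest that 100000 resamples can give, adjusted p = 0.00045). Leaving out the 2 libraries farthest from the median of Elovl1 gave r = -0.805, and leaving out TZP gave -0.832. Elovl1 and Fads1 varied together, with r = 0.853 and rho = 0.887 (permutation, adjusted p = 0.000675 and 0.00045), r = 0.815 without the 2 farthest libraries and 0.782 without TZP. Elovl1 and Elovl6 had r = -0.759 and rho = -0.770 (permutation, adjusted p = 0.00165 and 0.00225), and r = -0.756 without the 2 farthest. Scd1 and Scd2 had r = 0.783 and rho = 0.758 (permutation, adjusted p = 0.0125 and 0.0107), which dropped to r = 0.543 without TZP. Fads3 passed with none of the other 9 genes.

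**Figure D4:**
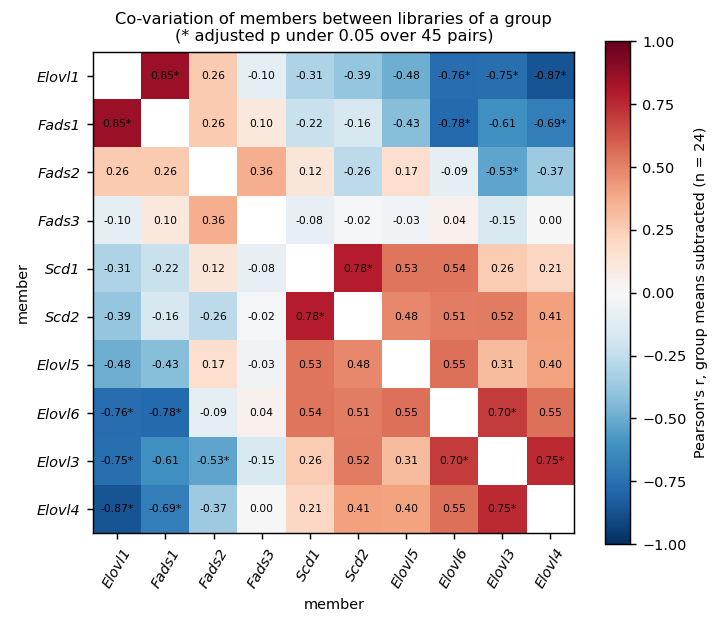
Pearson's r between each pair of the 10 genes over 24 libraries with group means subtracted (colour scale from -1 to 1); a star marks an adjusted p under 0.05 over 45 pairs. Elovl1 and Fads1 stand in one block and Elovl3, Elovl4 and Elovl6 in the other, with negative r between the blocks.

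Markers of macrophages and of other cell types moved with the same libraries. The mean of 10 macrophage markers ran from 8.81 to 9.86 in Vehicle, 8.29 to 9.30 in LAGIPRA, 8.51 to 9.46 in TZP and 8.62 to 9.87 in PairFedVehicle, and none of the 10 was at or near 0. Of these markers, 5 of 10 were lower in LAGIPRA than in Vehicle and 0 were higher, in the comparison where Elovl1 and Fads1 lay lower without passing. Within groups, the macrophage mean had r = 0.825 and rho = 0.809 with Elovl1 (permutation, adjusted p = 0.0018 and 0.0009 over 90 relations between the 10 genes and 9 marker lists, of which 12 passed). The r was 0.825 without the 2 farthest libraries and 0.828 without TZP. It had r = 0.696 and rho = 0.748 with Fads1 (permutation, adjusted p = 0.0054 and 0.0036). With Elovl6 it had r = -0.610 and rho = -0.724 (permutation, adjusted p = 0.0101 and 0.00698), and with Elovl4 r = -0.635 and rho = -0.647 (permutation, adjusted p = 0.0114 and 0.0104). The mean of 7 fibroblast markers had r = 0.769 with Elovl1, -0.660 with Elovl4 and -0.521 with Elovl6. The mean of 10 brown adipocyte markers had r = 0.743 with Elovl4 and -0.718 with Elovl1. Elovl4 also passed with the endothelial markers, with r = 0.701 (permutation, adjusted p = 0.0188, and 0.111 by rho). Fads1 passed with the Schwann cell and myelin markers, with r = -0.583 (permutation, adjusted p = 0.0188, and 0.0343 by rho). Fads3 passed with the white adipocyte markers alone, with r = 0.583 and rho = 0.489 (permutation, adjusted p = 0.0402 and 0.111), r = 0.411 without the 2 farthest libraries and 0.719 without TZP. Neither the part of macrophages nor that of other cells in the differences between groups was tested. Other marker lists moved with TZP: against Vehicle, 6 of 10 endothelial and 5 of 5 erythroid markers were lower and 0 higher, beside the falls of Scd1, Scd2 and Fads3. Of the 10 brown adipocyte markers, 5 were higher and 0 lower in PairFedVehicle against Vehicle, beside the falls of Scd1, Scd2, Elovl6 and Fads3. Against Vehicle, 5 of them were also higher in LAGIPRA and 2 in TZP, and 0 lower. Among all tested genes, 4.96% were called higher in PairFedVehicle, 8.7% in LAGIPRA and 11.7% in TZP against Vehicle. Those called lower against Vehicle were 5.03% in LAGIPRA and 10.3% in TZP.

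**Figure D5:**
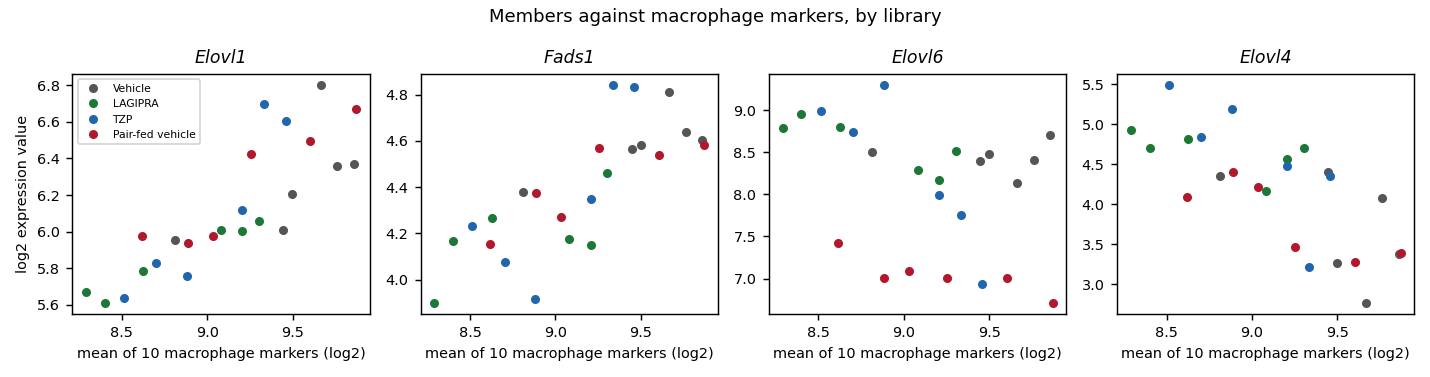
Log2 expression value of Elovl1, Fads1, Elovl6 and Elovl4 (vertical axis) against the mean log2 value of 10 macrophage markers (horizontal axis) in 24 libraries, coloured by group. Elovl1 rises with the markers across all 4 groups, while every Elovl6 value of PairFedVehicle lies below those of the other groups except TZP 3.

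Over all 24 libraries, the genes most like Elovl6 were Fasn (r = 0.962, rho = 0.938), Parm1 (0.939) and Acaca (0.936), among 13051 genes compared. The genes most like Scd2, besides Mir5114 inside it (0.982), were Slc5a3 (0.918) and Mpdz (0.906), and those most like Scd1 were Mme (0.898), Cgnl1 (0.891) and Stk38l (0.886). Fads3 was most like Lep (0.884), the gene of leptin and a white adipocyte marker. Lep was itself lower than in Vehicle in TZP (-0.69) and PairFedVehicle (-1.59). Of the 3 white adipocyte markers tested, 1 was called lower and 0 higher in each of these comparisons. The mean of Nnat, another of these markers, was 5.52 in Vehicle and 6.12 in PairFedVehicle. Elovl3 was most like Gars (0.829), Fgf21 (0.825) and Hacd2 (0.807), a dehydratase of the elongation cycle. Elovl1 was most like Sdc1 (0.952), Hcls1 (0.948) and Plekho1 (0.947), and Fads1 like Nans (0.925). Elovl4 was most like Atp5f1 (0.923) and Ndufb4 (0.913), subunits of ATP synthase and of complex I. The highest r for Elovl5 was 0.793, with Tcf25, and for Fads2 0.745, with Tgds. These correlations include the differences between groups and are given as a description of genes that share libraries and normalization.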

How the data were processed

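TRIzol and an RNeasy lipid kit were used to extract RNA from brown fat, followed by polyA selection, per the labels' protocols. The submitters' processing notes name cutadapt 1.9.1 and GSNAP, without roles. Not given in the sources used here are the build, annotation, counter and strand handling. In the deposited table there is 1 value per gene and library. The values as deposited were taken to be log2 values that the authors had quantile normalized. Both were inferred from the values, which ran from -0.50 to 22.35, so fold changes of weakly expressed genes may be understated. Depth is unknown; each library's commonest low value above its zero level stood for 1 read.

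The 25% of genes with the lowest mean (5754, below 2.86) were left out. The other 17263 were tested with limma 3.58.1 in R 4.3.3, with 1 mean per group over 24 samples, empirical Bayes with a mean-variance trend, and Benjamini-Hochberg adjustment over all tested genes, two-sided, threshold 0.05. The procedure was tested on simulated data. Differences are first minus second group. Correlations used 100000 permutations within groups. Transcript lengths came from GENCODE M21 for 88.6% of tested genes, promoters from RefSeq, and figures from matplotlib 3.10.9.

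The 10 genes, the related lists, the marker lists and the alternatives were chosen with earlier results of these data known. All 10 genes are named. From each related list, up to 3 genes of smallest p among those passing a comparison are named, and for each of the 10 genes up to 3 of the highest correlation, predicted models passed over. The correlations with marker lists were chosen after seeing the data. Alternatives were other filters, normalization, variance models, samples, covariates and a replicate block.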

Additional observations from a re-analysis of the deposited data

Results flagged for a closer look

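Of the 40 sets of 6 libraries formed by 10 genes and 4 groups, 1 had a library that stood apart by Dixon's test. Elovl5 in Vehicle 2 was at 7.40, where the nearest other Vehicle library was at 7.21, a gap of 0.702 of the range of the group. Chance marks about 1 in 20 such sets.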

How the results depend on the processing

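The count of the 10 genes called in PairFedVehicle against Vehicle was 4 under every alternative run. With the replicate number as a block, the counts stayed at 4 for LAGIPRA against PairFedVehicle and 4 for PairFedVehicle against Vehicle. They stayed at 3 for TZP against Vehicle, 2 for TZP against PairFedVehicle and 0 for the other comparisons, and the block changed no call. Same-numbered libraries had correlations of deviations from -0.602 to 0.378 over 36 pairs, 12 of them over 0.1. Differently numbered libraries were not compared in this way, so these values cannot decide whether the numbers pair the samples. With the level of 1 read as a covariate, the counts were 2 for LAGIPRA against PairFedVehicle (from 4) and 1 for TZP against PairFedVehicle (from 2, without Scd2). They were 2 for TZP against Vehicle (from 3, without Fads3) and 1 for TZP against LAGIPRA (from 0, Scd2). With the length slope removed they were 1 for LAGIPRA against Vehicle and 1 for TZP against LAGIPRA, both from 0, and 4 for TZP against Vehicle, where Elovl4 was gained at 0.92 (adjusted p = 0.041), as it was after a further quantile normalization (0.90, adjusted p = 0.0479). With only the 2 groups compared they were 2 for LAGIPRA against Vehicle (1 higher, Elovl4, and 1 lower, Fads1) 1 for TZP against PairFedVehicle, where Scd2 had an adjusted p of 0.0884 by limma, and 5 for LAGIPRA against PairFedVehicle, with Elovl4 gained. Without the 3 libraries lowest in muscle markers, 2 remained of the 4 for LAGIPRA against PairFedVehicle, and Scd1 and Fads3 were lost. With TZP 1 and 2 alone, 4 were called for TZP against PairFedVehicle (Scd1 and Elovl4 besides Scd2 and Elovl6), and for TZP against Vehicle 3 were called higher and 0 lower, against 3 lower with all 6. There Elovl6 turned to 0.71.

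Leaving out 1 library gave counts from 2 to 4 for LAGIPRA against PairFedVehicle, 0 to 2 for LAGIPRA against Vehicle, 0 to 2 for TZP against LAGIPRA, 2 to 3 for TZP against PairFedVehicle and 2 to 4 for TZP against Vehicle. For LAGIPRA against PairFedVehicle, Scd1 was lost in 7 of 12 such fits (largest adjusted p 0.0793, limma) and Fads3 in 8 of 12 (0.0943). For TZP against Vehicle, Fads3 was lost without Vehicle 2 (adjusted p = 0.0572) or TZP 5 (0.0678). Without TZP 1, Scd1 and Scd2 passed for TZP against LAGIPRA (-0.94 and -1.29), and likewise without TZP 2 (-0.94 and -1.12). The cause of these changes was not tested. Under the stricter filter, 7 of the 10 genes could be tested. Depth is unknown and sets no stated limit on these values.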
